A study of Mus musculus with 16 samples.

Results

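The innate receptor, NF-kB and JAK-STAT signalling genes were 29 of the 760 genes measured in mouse liver on a NanoString nCounter Fibrosis Panel. They were taken by name: every gene whose symbol starts with Tlr, Myd88, Irak, Traf, Nfkb, Rela, Relb, Ikbk, Tnf, Irf, Jak, Stat, Socs, Tyk2, Ifnar, Ifngr or Nlrp. No gene analysed here starts with Socs, Tyk2 or Ifnar. With roles assigned by gene name and not by measured activity, the set holds 8 receptors and sensors, 3 ligands, 3 adaptors or ubiquitin ligases, 4 kinases and 11 transcription factors. The livers came from 16 male C57BL/6J mice kept at thermoneutrality (29 °C) on a diet with 20 kcal% fructose, 0.02% cholesterol and 40 kcal% fat, of which palm oil was the main source. In 8 mice the gavage held only vehicle, CMC at 1.5% with Tween-20 at 0.2%. The other 8 mice received EVT0185 at 100 mg/kg by the same route. By the series title, EVT0185 inhibits enzymes that metabolise acetyl-CoA. All 16 animals shared the diet and the housing, so the comparison is of drug against vehicle on that diet, and no group on another diet was analysed here. Neither the mice's age nor how long they were dosed is given in the sources used here.

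Toll-like receptors bind microbial products and, mostly through the adaptor Myd88, Irak kinases and the ubiquitin ligase Traf6, switch on the IkB kinase Ikbkb, which releases NF-kB dimers such as Nfkb1 with Rela into the nucleus. Receptors for interferons and for cytokines of the interleukin-6 family signal instead through Jak kinases, which phosphorylate STAT factors, and interferon regulatory factors (Irf) act beside both branches. In liver, Kupffer cells and recruited macrophages carry much of the Toll-like receptor signalling, hepatocyte Stat3 drives the acute-phase genes, and Stat5b carries the growth hormone signal. Much of this signalling is set by phosphorylation and by movement into the nucleus, which mRNA counts do not measure.

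The nCounter platform counts single RNA molecules with barcoded probes and uses no amplification. The deposited values are log2 normalized counts, and recovered probe counts per animal summed to between 1462994 and 1850800. Testing with limma took in each gene whose normalized values averaged 20 or more across the 16 animals, which left 612 of the 760 genes and 25 of the 29 members. Irf4, Tlr6, Tnf and Tnfsf14 lay below that floor. A gene was said to rise or fall where its p-value, adjusted by Benjamini and Hochberg over the 612 genes, was below 0.05. Differences are EVT0185 minus vehicle on the log2 scale, with the standard error (SE) of the fit, and levels are normalized counts. Probes differ in efficiency, so levels of different genes are not compared. Hepatocyte markers were abundant in every animal, the 8 markers on the panel summing to 421331 to 570754 in vehicle and 384377 to 460034 in EVT0185 livers, as the label liver implies. The labels call the replicates biological, and no pair of samples of the same group agreed within counting noise.

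Of the 25 members tested, 1 rose and 7 fell with EVT0185. Over all 612 genes, 32.7% passed the test in either direction, 11.1% higher and 21.6% lower. The members' share, 32%, lies beside that background, so the number that passed is no feature of these genes. Their median difference was -0.21, against -0.10 for all genes tested, and 21 of 25 differences were negative (84%, against 66% of all genes). The gene that rose was Myd88, the shared adaptor of most Toll-like receptors. The genes that fell were the kinases Ikbkb and Jak1, the transcription factors Stat3, Stat5b, Irf1 and Irf8, and the death ligand Tnfsf10. The shifts were modest: the called differences ran from 1.15-fold lower in Jak1 to 1.54-fold lower in Tnfsf10, and Myd88 was 1.18-fold higher. No member had groups that did not overlap at all (0 of 25, against 6.86% of all genes). For 9 of the 25, all 8 EVT0185 animals lay below the vehicle median, and for Myd88 alone all 8 lay above it. The share over all 612 genes was not computed for these counts, so nothing particular to the members is read from them.

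The deposited scaling leaves the median gene at -0.10, so part of each small negative value depends on the scale. Centring each animal on its median brought the split of called genes from 34% higher to 53.3% higher, and quantile normalization brought it to 54.8%. Under centring 5 members passed, 4 of them lower, where 29.4% of all genes passed. Under quantile normalization 6 members passed, 5 of them lower, beside 32.2% of all genes. With a block on the replicate number 7 members passed, all lower, beside 31% of all genes. Myd88 (adjusted p = 0.0684) and Jak1 (0.0908) did not pass in that fit, and the receptor Tlr1 did (0.0221). Myd88 was higher under both other scalings. Ikbkb, Stat5b and Myd88 passed under all 3 scalings. Beside each member below, a scaling that ends its call is named.

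**Figure D1:**
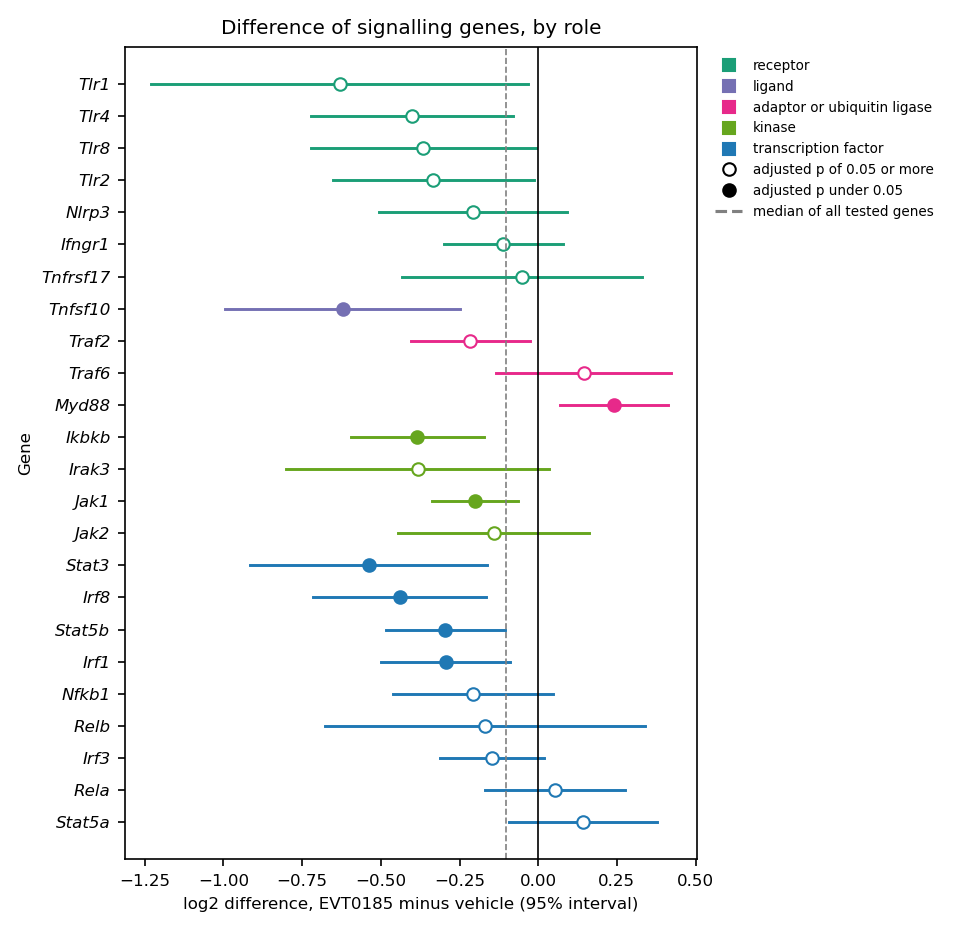
Difference of EVT0185 minus vehicle (log2, horizontal axis) for 24 of the 25 tested members, ordered by role, with points for the estimate and bars for the 95% confidence interval from limma (8 animals a group). Among the members that passed the test, Myd88 at 0.24 sits to the right of 0 and the other 7, from -0.20 for Jak1 to -0.62 for Tnfsf10, sit to the left, while no receptor passed.

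None of the 7 receptors tested passed the adjusted test. An unadjusted limma p below 0.05 was found for 4 of them, the Toll-like receptors, and for 260 of all 612 genes. An exact rank-sum test, which called 193 of all 612 genes, also called 0 of the 7. Their differences were all negative, with a median of -0.33. Under median centring 6 of 7 were negative (median -0.24), and under quantile normalization 5 of 7 (median -0.09). The receptor probes gave a median of 46.9 normalized counts, and their median SD within groups was 0.31 on the log2 scale. For the 17 adaptors, kinases and transcription factors tested that SD was 0.22. Of those 17 genes, 1 rose and 6 fell, with a median of -0.21. The difference between receptors and the signalling genes downstream of them was not tested.

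Tlr4, the lipopolysaccharide receptor, had 41.9, 69.9 and 92.6 normalized counts as the lowest, median and highest vehicle values, against 41.3, 49.4 and 59.8 with EVT0185. In 6 of the 8 vehicle animals Tlr4 was above every EVT0185 animal, but the lowest vehicle values lay inside the EVT0185 range. The difference was -0.40 (SE 0.15, 95% confidence interval -0.72 to -0.08, adjusted p = 0.0519). It passed without vehicle 2 (adjusted p = 0.0188), vehicle 4 (0.0130) or EVT0185 animal 6 (0.0425). With all 16 animals it also passed with a pseudocount of 20 (0.0463), with sample weights (0.0173) and with no variance trend (0.0466). Tlr4 did not pass under median centring (-0.30, adjusted p = 0.111) or quantile normalization (-0.19, adjusted p = 0.327). Nor did it pass in the exact rank-sum test (adjusted p = 0.116). Tlr2, which senses bacterial lipoproteins as a dimer with Tlr1 or Tlr6, ran from 21.8 through 27.6 to 32.8 in vehicle and from 13.9 through 23.0 to 27.3 with EVT0185. All 8 EVT0185 animals were below the vehicle median, yet the ranges overlapped. The Tlr2 difference was -0.33 (SE 0.15, adjusted p = 0.105), and the scatter expected from counting alone accounts for 99.3% of its variance within groups.

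Tlr1, the partner of Tlr2, had 35.5, 55.6 and 179 as lowest, median and highest in vehicle, and 25.9, 43.9 and 64.2 with EVT0185. The highest value belonged to vehicle 6, and 3 vehicle animals lay above every EVT0185 animal. The difference was -0.63 (SE 0.29, adjusted p = 0.102), and -0.42 without vehicle 6. Tlr8, an endosomal receptor, ran from 41.0 through 49.1 to 83.6 in vehicle and from 28.9 through 39.3 to 62.2 with EVT0185. Its difference of -0.37 (SE 0.17) did not pass (adjusted p = 0.110) and passed only without EVT0185 animal 5 (adjusted p = 0.0387). Tlr6, below the floor, had a median of 19.6 in vehicle and 13.4 with EVT0185, with between 9 and 22 counts per animal. All 4 tested Toll-like receptors kept negative differences under the 3 scalings, with medians of -0.38, -0.29 under centring and -0.17 under quantile normalization.

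**Figure D2:**
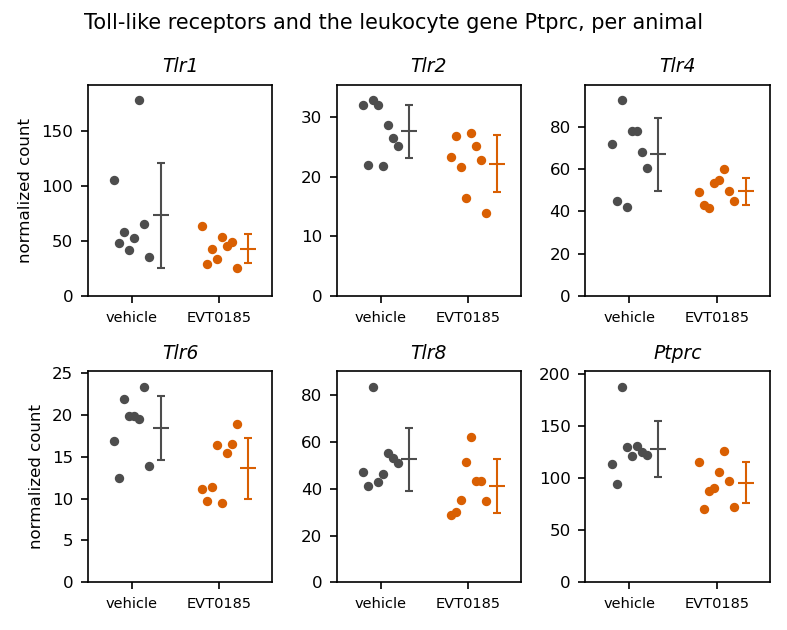
Normalized counts (vertical axis, from 0) of the Toll-like receptors and of the leukocyte gene Ptprc in the 8 vehicle and 8 EVT0185 animals. Each animal is a point, with the mean ± SD beside each group. Tlr1 in vehicle 6, at 179, stands far above the other animals, and in each panel the groups overlap.

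The remaining receptors differed less. Ifngr1, the ligand-binding chain of the interferon-gamma receptor, ran from 251 through 311 to 366 in vehicle and from 244 through 278 to 357 with EVT0185. The groups covered nearly the same range, and the difference of -0.11 (SE 0.09, 95% confidence interval -0.30 to 0.08, adjusted p = 0.375) became 0.0061 under quantile normalization. Nlrp3, the sensor of the inflammasome that activates caspase-1, had 17.1, 24.7 and 25.9 in vehicle against 13.5, 19.6 and 28.4 with EVT0185. That difference, -0.21 (SE 0.14, adjusted p = 0.283), did not pass, on a probe that gave 14 to 29 counts per animal. Tnfrsf17, a receptor of plasma cells, was at -0.05 (SE 0.18, adjusted p = 0.848). Its sign turned under both other scalings.

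Tnfsf10, the ligand TRAIL that triggers apoptosis through death receptors and is itself induced by interferon, was the only ligand bright enough to test. The lowest, median and highest values were 48.6, 106 and 134 in vehicle against 46.5, 57.8 and 79.8 with EVT0185. Of the vehicle animals, 6 lay above every EVT0185 animal. Tnfsf10 fell by 0.62 (SE 0.18, adjusted p = 0.0122), or 1.54-fold, the largest fall among the members that passed. Under quantile normalization the value was -0.44 and did not pass (adjusted p = 0.0626). Tnf, the cytokine that gives the family its name, had 6.62, 12.0 and 18.0 in vehicle and 7.23, 18.0 and 24.7 with EVT0185, and 6 to 23 counts per animal. In a fit with no floor Tnf was at 0.42 (SE 0.27, 95% confidence interval -0.14 to 0.99, adjusted p = 0.281). Tnfsf14, the cytokine LIGHT, gave 5 to 14 counts per animal, and no reading is taken from it.

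Myd88 rose. Its lowest, median and highest values were 135, 148 and 193 in vehicle and 154, 185 and 189 with EVT0185. In vehicle, 6 animals lay below every EVT0185 animal, while vehicle 3 had the highest value of all 16. The difference was 0.24 (SE 0.08, 95% confidence interval 0.07 to 0.41, adjusted p = 0.0317). It was larger under median centring, at 0.34 (adjusted p = 0.00381). The call was narrow: it ended without any of vehicle 1, 5, 6 or 8 or of EVT0185 animals 3 to 8, where the adjusted p reached 0.0584 and the difference stayed between 0.22 and 0.24. Traf6, the ubiquitin ligase that Myd88 and the Irak kinases recruit, had 81.6, 143 and 190 in vehicle and 128, 154 and 177 with EVT0185, a difference of 0.14 (SE 0.13, adjusted p = 0.448). The Traf6 difference was 0.24 under median centring (adjusted p = 0.0750) and 0.28 under quantile normalization (adjusted p = 0.0520), and passed under neither. Traf2, the ligase recruited by receptors for tumour necrosis factor, had 133, 155 and 180 in vehicle and 115, 129 and 160 with EVT0185. For Traf2, 5 EVT0185 animals lay below every vehicle animal. The difference of -0.22 (SE 0.09, adjusted p = 0.0725) did not pass, but did without vehicle 7 (0.0294), EVT0185 animal 1 (0.0471) or EVT0185 animal 4 (0.0406), and in the exact rank-sum test (0.0468).

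Ikbkb, the kinase that marks IkB for destruction, had the smallest adjusted p among the members. Its lowest, median and highest values were 268, 343 and 352 in vehicle against 187, 244 and 320 with EVT0185. With EVT0185, 6 animals were below every vehicle animal. Ikbkb fell by 0.38 (SE 0.10, 95% confidence interval -0.60 to -0.17, adjusted p = 0.00713), or 1.31-fold, and passed with any single animal left out (adjusted p from 0.0028 to 0.0161). Jak1, a kinase used by interferon receptors and by the interleukin-6 receptor chain, had 1019, 1064 and 1230 in vehicle and 834, 968 and 1066 with EVT0185. All but 1 of the EVT0185 animals lay below every vehicle animal, and Jak1 fell by 0.20 (SE 0.07, adjusted p = 0.0260). The Jak1 call ended under median centring (adjusted p = 0.225) and without vehicle 3 (0.0521), vehicle 6 (0.0558), EVT0185 animal 2 (0.0519) or EVT0185 animal 3 (0.0547). Jak2, the kinase of growth hormone and interferon-gamma signalling, had 110, 189 and 211 in vehicle and 116, 165 and 227 with EVT0185. The groups spanned the same range, and the difference was -0.14 (SE 0.14, adjusted p = 0.504). Irak3, a brake on Myd88 signalling that is counted with the kinases by its name, was at -0.38 (SE 0.20, adjusted p = 0.151), with 11 to 39 counts per animal.

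**Figure D3:**
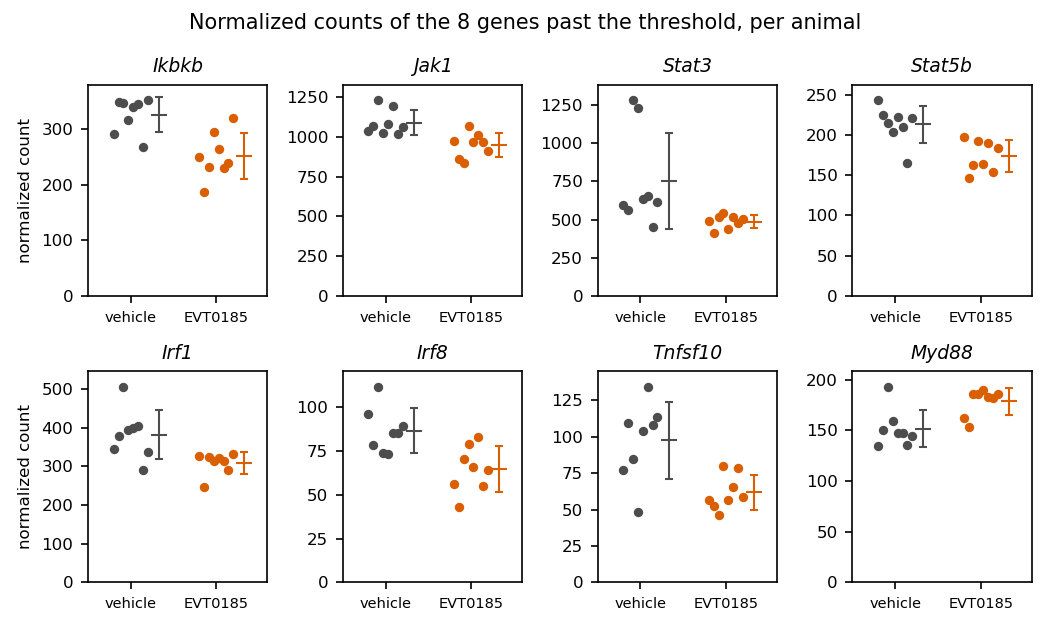
Normalized counts (vertical axes, from 0) of the 8 members that passed the test, a point for each of the 8 vehicle and 8 EVT0185 animals, with the mean ± SD beside each group. Myd88 is higher with EVT0185 (median 185 against 148) and the other 7 are lower, and in every panel at least 1 animal of a group lies within the range of the other.

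Among the STAT factors, Stat3 and Stat5b fell, while Stat5a did not pass. Stat3 had 454, 624 and 1282 as lowest, median and highest in vehicle against 410, 495 and 541 with EVT0185. All but 1 of the vehicle animals lay above every EVT0185 animal. Stat3 fell by 0.54 (SE 0.18, adjusted p = 0.0281), or 1.45-fold. Much of that size came from vehicle 3 and vehicle 4, at 1282 and 1229. Without these 2 animals, a choice made after seeing the data, the difference was -0.26 (SE 0.09, adjusted p = 0.0390). The call ended under median centring (adjusted p = 0.0555) and without EVT0185 animal 2 (0.0555).

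The 2 animals with the highest Stat3 were also those with the highest Saa1/2, the serum amyloid A genes that Stat3 induces. Saa1/2 stood at 22183 in vehicle 3 and 48625 in vehicle 4, against 2897 to 10129 in the other vehicle animals and 845 to 3864 with EVT0185. Il6st, the signalling chain of the interleukin-6 receptor, was highest in the same animals, at 1097 and 848 against 540 to 714 in the other vehicle livers. Il6st did not differ between the groups beyond its spread (-0.16, adjusted p = 0.352). Saa1/2 fell by 2.50 on the log2 scale (SE 0.51, adjusted p = 0.00112), and without vehicle 3 and 4 by 1.81 (adjusted p = 0.000786).

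**Figure D4:**
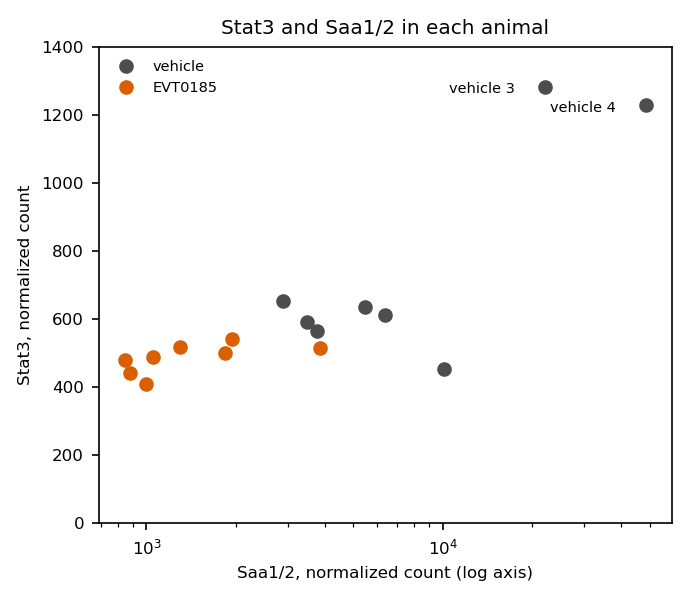
Stat3 (vertical axis) against Saa1/2 (horizontal axis, log scale), both in normalized counts, with a point for each animal, coloured by group. Vehicle 3 and vehicle 4 sit apart at Stat3 of 1282 and 1229 with the highest Saa1/2, and the 8 EVT0185 animals lie between 410 and 541 for Stat3.

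Stat5b had 165, 218 and 243 in vehicle and 146, 174 and 197 with EVT0185, and 7 vehicle animals lay above every EVT0185 animal. It fell by 0.29 (SE 0.09, 95% confidence interval -0.48 to -0.11, adjusted p = 0.0176) and passed with any single animal left out. Stat5a, its close paralog, leaned the other way: 125, 173 and 219 in vehicle against 167, 186 and 238 with EVT0185, with 7 of 8 EVT0185 animals above the vehicle median. On its own that difference, 0.14 (SE 0.11, 95% confidence interval -0.09 to 0.38, adjusted p = 0.364), did not pass. Nor did it pass under median centring (0.24, adjusted p = 0.0696) or quantile normalization (0.25, adjusted p = 0.0592).

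The ratio of Stat5a to Stat5b within each animal, which no scaling factor of the animal can change, was higher with EVT0185. It ran from 0.739 to 0.975 in vehicle and from 0.909 to 1.34 with EVT0185, so that 7 of the 8 EVT0185 animals lay above every vehicle animal. The mean log2 ratio was -0.29 ± 0.16 (SD) in vehicle and 0.15 ± 0.18 with EVT0185, a difference of 0.44 (SE 0.08), or 1.35-fold. It was one of 18 ratios between members of a family that were computed after the values had been seen. In an exact two-sided permutation test over 12870 assignments of the animals, adjusted over the 18 ratios, it had p = 0.0140, and with any single animal left out between 0.0084 and 0.0252. Of the other ratios, Stat3 to Stat5a (difference -0.68, SE 0.24, adjusted p = 0.0308) and Traf2 to Traf6 (-0.36, SE 0.12, adjusted p = 0.0308) passed in the same exact test. Both lost the call without single animals, as Stat3 to Stat5a did without vehicle 4 or EVT0185 animals 1, 2 and 5 to 8 (up to 0.0699). Traf2 to Traf6 did so without vehicle 4, 5 or 7 or EVT0185 animals 1 to 3 and 5 to 8 (up to 0.0709). Stat5b, Stat5a and Stat3 are neighbouring genes on mouse chromosome 11 in RefSeq. The sequences of Stat5a and Stat5b are close to identical over long stretches, and whether the probes distinguish them was not tested.

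**Figure D5:**
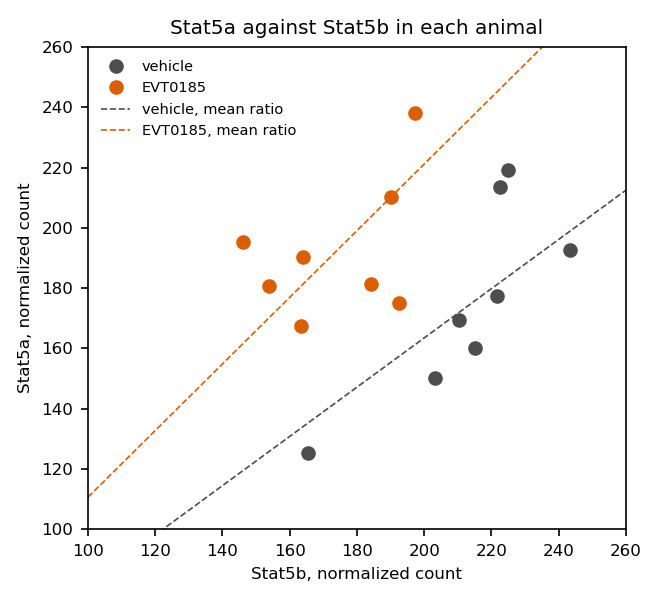
Stat5a (vertical axis) against Stat5b (horizontal axis), both in normalized counts, with a point for each of the 8 vehicle and 8 EVT0185 animals. Dashed lines mark the geometric mean ratio of Stat5a to Stat5b in each group, 0.817 in vehicle and 1.11 with EVT0185, and the EVT0185 animals lie toward the upper left of the vehicle animals.

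Of the interferon regulatory factors, Irf1 and Irf8 fell. Irf1, induced by interferon-gamma, had 292, 385 and 506 in vehicle and 246, 318 and 331 with EVT0185. Again 7 vehicle animals were above every EVT0185 animal. Irf1 fell by 0.29 (SE 0.10, adjusted p = 0.0281), a call that ended under median centring (0.0555), without vehicle 3 (0.0534), vehicle 5 (0.0510), vehicle 6 (0.0539) or EVT0185 animal 2 (0.0587), and without vehicle 3 and 4 together (0.0909). Irf8, which directs the development of monocytes and macrophages, had 73.2, 85.0 and 111 in vehicle and 42.9, 64.8 and 83.0 with EVT0185. For Irf8, 6 EVT0185 animals were below every vehicle animal. It fell by 0.44 (SE 0.13, adjusted p = 0.0155), or 1.36-fold, and did not pass under quantile normalization (-0.25, adjusted p = 0.102). Irf3, the factor that turns on interferon-beta after viral sensing, had 315, 348 and 413 in vehicle and 281, 328 and 366 with EVT0185, at -0.15 (SE 0.08, adjusted p = 0.170). Irf4, a factor of lymphocytes and of some macrophages, gave 1 to 12 counts per animal, and nothing can be read from it.

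The NF-kB subunits themselves did not pass. Nfkb1, the p105 precursor of p50, had 136, 215 and 243 in vehicle and 131, 183 and 194 with EVT0185. All 8 EVT0185 animals were below the vehicle median, and the difference was -0.21 (SE 0.12, 95% confidence interval -0.46 to 0.05, adjusted p = 0.204). It passed without vehicle 7 (-0.29, adjusted p = 0.0336), the vehicle animal with the lowest Nfkb1, and with sample weights on all animals (adjusted p = 0.0242). Vehicle 7 also had the lowest median of its group over all tested genes (7.63 log2). The Nfkb1 difference was -0.11 under median centring (adjusted p = 0.264) and -0.12 under quantile normalization (adjusted p = 0.222). Rela, the p65 subunit that activates transcription, had 91.2, 133 and 168 in vehicle and 113, 133 and 144 with EVT0185, with nearly equal medians. Its difference was 0.05 (SE 0.11, 95% confidence interval -0.17 to 0.28, adjusted p = 0.732), and -0.015 without vehicle 7. Relb, the subunit of the alternative pathway, was at -0.17 (SE 0.24, adjusted p = 0.646) and turned to 0.049 under quantile normalization. By limma 0 of the 3 subunits had an unadjusted p below 0.05, and by the exact rank-sum test 0 passed.

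Promoters from RefSeq (GRCm38.p6, mouse) were searched on both strands for 3 short motifs that the factors of this set recognise. Each window held 250 bases before and 50 after the start of the gene. The motifs were the STAT site GAS (TTCNNNGAA), the core of the interferon-stimulated response element bound by Irf factors and the kappaB consensus bound by NF-kB. The table holds 32 promoters of 24 members, of which GAS matched in 6, the kappaB consensus in 4 and the response element core in 3, with no gene counted more than once for a motif. Among all 32851 promoters of the table, 8.30%, 4.51% and 3.44% held them. Promoters are printed for 4 genes, those of Irf1, Irf8 and Myd88 because these genes passed the test and hold a match, and that of Tlr2 because it is a receptor with kappaB matches. Capitals mark the matches. A match describes the letters only and shows no binding.
Irf1: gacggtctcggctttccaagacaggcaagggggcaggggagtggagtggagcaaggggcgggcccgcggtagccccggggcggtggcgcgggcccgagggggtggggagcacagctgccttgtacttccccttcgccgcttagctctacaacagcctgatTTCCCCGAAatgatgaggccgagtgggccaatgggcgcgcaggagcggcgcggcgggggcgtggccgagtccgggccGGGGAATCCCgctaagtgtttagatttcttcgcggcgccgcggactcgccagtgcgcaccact
Irf8: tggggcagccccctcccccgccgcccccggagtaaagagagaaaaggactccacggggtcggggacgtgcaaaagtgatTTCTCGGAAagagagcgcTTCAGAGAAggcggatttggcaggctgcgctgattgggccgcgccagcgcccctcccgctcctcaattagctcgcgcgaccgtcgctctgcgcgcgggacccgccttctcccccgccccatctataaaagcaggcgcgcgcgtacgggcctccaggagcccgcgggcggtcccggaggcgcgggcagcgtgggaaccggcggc
Myd88: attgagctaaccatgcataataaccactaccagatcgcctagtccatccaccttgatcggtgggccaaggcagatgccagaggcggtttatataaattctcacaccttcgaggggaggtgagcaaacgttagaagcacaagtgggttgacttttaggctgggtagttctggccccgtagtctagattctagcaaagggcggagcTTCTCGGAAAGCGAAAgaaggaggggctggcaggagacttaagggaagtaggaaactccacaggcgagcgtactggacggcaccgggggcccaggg
Tlr2: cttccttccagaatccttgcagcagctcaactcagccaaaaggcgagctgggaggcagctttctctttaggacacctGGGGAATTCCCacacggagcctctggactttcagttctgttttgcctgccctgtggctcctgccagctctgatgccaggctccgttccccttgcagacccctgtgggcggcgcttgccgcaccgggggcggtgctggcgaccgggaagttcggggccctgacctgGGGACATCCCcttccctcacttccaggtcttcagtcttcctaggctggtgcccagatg
In Irf1 (chr11:53769764-53770063, plus strand) the GAS match spans bases 161 to 169 of the window and the kappaB match bases 238 to 247. Irf8 (chr8:120736108-120736407, plus strand) holds GAS matches at 80 to 88 and at 98 to 106. In Myd88 (chr9:119339969-119340268, minus strand) a GAS match at 205 to 213 overlaps a response element core at 211 to 220. Tlr2 (chr3:83841559-83841858, minus strand) has overlapping kappaB matches at 78 to 87 and 79 to 88, and a further one at 243 to 252. GAS matches lie in Irf1 and Irf8, which fell, in Myd88, which rose, and in Tlr1, Tlr6 and Tlr8, which were not called. Myd88 was the only member that rose, so no link of these letters to a direction is read from them.

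Correlations across animals were followed within each group for Tlr4 with its co-receptor Cd14 and for Tlr2 with Myd88. In the 8 vehicle animals Pearson's r was 0.57 for Tlr4 with Cd14 and 0.36 for Tlr2 with Myd88. In the 8 EVT0185 animals it was 0.42 and -0.39. Spearman's rho ran from -0.24 to 0.45. None of these 4 values passed an exact permutation test, adjusted over the 6 computed (lowest adjusted p = 0.285 for r, 0.665 for rho). Without the 2 animals farthest from the median Tlr4, the vehicle r of Tlr4 with Cd14 was -0.03, and r in EVT0185 animals was 0.36. Under median centring the vehicle r was 0.62 with all 8 animals and 0.35 without 2. For EVT0185 animals it was 0.49 and -0.09 under that scaling. The dependence on single animals thus changed with the scaling and the group.

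Genes around the members were read from lists of the same pathways. Their counts stand beside the same background, 21.6% of all tested genes lower and 11.1% higher with a median of -0.10, and nothing particular to a list is read from them. Of 9 receptor and adaptor genes outside the set, 2 fell and 1 rose, with a median of -0.14. Il1rap, the accessory chain of the interleukin-1 receptor, which like the Toll-like receptors signals through Myd88, had a median of 1267 in vehicle and 679 with EVT0185 and fell by 0.79 (SE 0.12, adjusted p = 6.19e-05). Il1r1, the binding chain of the same receptor, had medians of 185 and 131 and fell by 0.76 (SE 0.22, adjusted p = 0.0128), or by 0.41 without vehicle 3 and 4. Casp8, the caspase of death receptors, rose by 0.19 (SE 0.07, adjusted p = 0.0399), a call lost without those animals (0.0640). Both chains of the interleukin-1 receptor were thus lower while the adaptor they share was higher.

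Among genes that NF-kB induces, 12 were on the panel, 8 were tested and 2 fell, with a median of -0.22. Bcl2l1, an anti-apoptotic gene, fell by 0.31 (SE 0.09, adjusted p = 0.0128). Il6, the cytokine upstream of Stat3, had medians of 40.3 and 25.8 and fell by 0.51 (SE 0.19, adjusted p = 0.0427), which did not pass under median centring (0.128) or quantile normalization (0.208). Of 12 interferon targets tested, 4 fell and 1 rose, with a median of -0.29. Under median centring and under quantile normalization 2 fell and 1 rose, with medians of -0.19 and -0.11. Oas1a/g, measured under that joint name, is not among the 12. It ran from 21.6 to 30.5 in vehicle and from 19.6 to 30.0 with EVT0185 and did not pass. Psmb8, an immunoproteasome subunit, had medians of 651 and 354 and fell by 1.02 (SE 0.16, adjusted p = 7.45e-05). Ifi35 fell by 0.43 (SE 0.12, adjusted p = 0.0128), which median centring did not keep (0.0697). Bst2, the antiviral protein tetherin, moved the other way, from a median of 2637 to 3807, and rose by 0.60 (SE 0.14, adjusted p = 0.00442).

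Cytokine receptors that use Jak kinases gave 2 falls among 7 tested (9 on the panel), with a median of -0.45. These were Il10ra, the interleukin-10 receptor chain (fell by 0.47, SE 0.12, adjusted p = 0.00713), and Csf3r, the receptor for granulocyte colony-stimulating factor (fell by 0.54, SE 0.19, adjusted p = 0.0371). Neither passed under quantile normalization (0.105 and 0.175), and Csf3r did not pass under median centring (0.0712). Acute-phase genes listed beforehand as Stat3 targets gave 5 falls among 8 tested, with a median of -0.63. Whether Stat3 drives each of them in these livers was not tested. C9, the terminal complement component, had medians of 4364 and 1458 and fell by 1.57 (SE 0.20, adjusted p = 1.28e-05). Crp, C-reactive protein, had medians of 3646 and 2073 and fell by 0.90 (SE 0.13, adjusted p = 5.14e-05). Without vehicle 3 and 4, 4 of the 8 fell, with a median of -0.50.

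In whole liver, fewer cells of a type and less RNA per cell cannot be told apart. Ptprc, the pan-leukocyte gene CD45, fell by 0.42 (SE 0.14, adjusted p = 0.0281), from 94.3 to 188 in vehicle to 70.9 to 126 with EVT0185, and did not pass under median centring (0.0611), quantile normalization (0.0826) or without vehicle 3 and 4 (0.0890). Of 6 macrophage markers 2 fell, Ccr2 by 0.83 (SE 0.22, adjusted p = 0.00713) and Cd68 by 0.50 (SE 0.17, adjusted p = 0.0317). Cd68 did not pass under median centring (0.0786) or quantile normalization (0.0689), while Marco (0.51) and Cd163 (0.29) had positive differences that did not pass. The summed level of the 6 macrophage markers ran from 808 to 2776 in vehicle and from 982 to 1331 with EVT0185. Of 11 T and NK cell markers 10 lay below the floor, and the 11 summed to 132 to 158 in vehicle and 122 to 162 with EVT0185. The 3 B cell markers summed to 40.8 to 67.9 and 45.2 to 74.5. None of 6 endothelial markers passed (762 to 1216 and 848 to 1136 summed). Of 9 stellate cell markers 4 fell (1553 to 2875 and 1143 to 1917), and of 8 hepatocyte markers 4 fell. No marker listed was at 0 in any animal. These marker counts stand beside 21.6% of all tested genes lower, and nothing particular to a cell type is read from them. The part of cell makeup in the members' values was not tested.

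Single animals recur across the members. Vehicle 3 was the highest of its group for 14 of the 25 tested members, and also had high Cd68 (601), Csf1r (1052), Isg15 (648), Psmb8 (1218) and Ptprc (188). Vehicle 7 was the lowest of its group for 11 of 25, and EVT0185 animal 2 the lowest of its group for 11 of 25. The labels give no batch that would separate these animals.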

How the data were processed

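Liver RNA, purified on RNeasy columns per the labels' protocols, was hybridised to a NanoString nCounter Fibrosis Panel. The deposited values are log2 normalized counts per gene and sample. Per the submitters' processing notes nSolver 4.0 was used, and per the labels' protocols the authors normalized to the global geometric mean, which assumes that the average gene is equal between animals. Low values were whole multiples of a sample constant within 0.1 count, and that constant gave the probe count totals (1724050 ± 127413 in vehicle and 1632340 ± 122814 with EVT0185, SD, n = 8 each). Counting error comes from those recovered counts.

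Groups were taken from the labels. The comparison was fitted with limma 3.58.1 (R 4.3.3; lmFit, eBayes with a variance trend) on the 612 genes at or above the floor of 20, two-sided, with Benjamini-Hochberg adjustment over the 612. The fit was tested on simulated data. Ratios and correlations used exact permutation tests (scipy 1.17.1). Values of animals with fold and test are given for members past 0.05 and for fixed hub genes, and for up to 3 called genes of each pathway list. The members, roles and lists were chosen with earlier results of these data known. Alternatives were median centring, quantile normalization, no floor, a floor of 100, a pseudocount of 20, a replicate block, sample weights, no variance trend, an exact rank-sum test and leaving out each animal. Leaving out vehicle 3 and 4 together, and the ratios, were added after seeing the data. All 29 member symbols matched RefSeq. The results of 1 member are not reported here, though it is counted among the 25 tested.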

Additional observations from a re-analysis of the deposited data

Results flagged for a closer look

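Of the members, 28 were looked at within each group of 8 animals for a highest or lowest animal that stood apart from the rest by Dixon's gap test, and 9 of 56 groups held one. Chance alone gives about 1 in 20 groups, or 5%. Vehicle 3 stood above its group for Myd88 (193 normalized counts, the next at 159) and Tlr8 (83.6, the next at 55.4). Vehicle 7 stood below its group for Jak2 (110, the next at 173), Stat5b (165, the next at 203) and Traf6 (81.6, the next at 129). Over all tested genes that animal also had the lowest median of its group (7.63 log2), as EVT0185 animal 2 had (7.60). Vehicle 1 was low for Tnfrsf17 (10.7) and vehicle 2 for Nlrp3 (17.1), both dim probes. With EVT0185, animal 1 was high for Ifngr1 (357, the next at 289) and animal 2 was low for Irf1 (246, the next at 291). The high Myd88 of vehicle 3 and the low Stat5b of vehicle 7 lie on the side of the other group, against the direction in which those genes differed.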

How the results depend on the processing

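Under median centring 84 genes were called lower and 4 members, and under quantile normalization 108 genes were called higher. Ifngr1 turned to 0.0061 and Relb to 0.049 under quantile normalization, Tnfrsf17 to 0.044 under centring and 0.11 under quantile normalization, the log2 Tlr2 to Tlr8 ratio difference to -0.064 under quantile normalization, and r of Tlr2 with Myd88 in EVT0185 animals to 0.12 under centring; the cause was not tested. Leaving out single animals gave 60 to 71 genes higher and 103 to 165 lower, and 0 to 1 members higher and 4 to 9 lower. Differences that changed sign among those fits ranged from -0.015 to 0.11 for Rela, from -0.20 to 7.25e-05 for Tnfrsf17, and for log2 ratios from -0.10 to 0.035 (Tlr4 to Tlr8), -0.071 to 0.14 (Tlr2 to Tlr8), -0.018 to 0.19 (Tlr2 to Tlr4) and -0.11 to 0.030 (Jak1 to Jak2). With the replicate number as a block, 61 genes were called higher and 129 lower, and 0 members higher and 7 lower (Myd88 adjusted p = 0.0684, Jak1 0.0908, Tlr1 0.0221). The numbers were not taken as pairs: same-numbered animals correlated at -0.14 to 0.46, over 0.1 in 5 of 8, and 2 of 8 vehicle animals correlated best with their own number. A floor of 100 left 15 members to test. Depth limits the dim probes: counting accounted for over 50% of the variance within groups in 6 of 25 members.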
